A study of Mus musculus with 24 samples.

Results

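The genes described here are 40 enzymes, transporters and regulators of glutathione metabolism and the NRF2 antioxidant response, measured in the livers of mice with and without the gene Smyd3. They were chosen by symbol, from a list drawn up with earlier results of these data known, and all 40 were found among the 37583 genes of the deposited RNA table. Low values were filtered by asking for 10 or more in 3 or more libraries, which 38 of the 40 and 16471 genes in all passed, and Gpx2 and Mgst2 did not. The list holds 22 glutathione S-transferases (GSTs) and 18 other genes.

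Glutathione is a small thiol that liver cells hold in large amounts. GSTs join it to reactive chemicals so that they can be exported, and glutathione peroxidases use it to remove peroxides. NRF2, the transcription factor encoded by Nfe2l2, is held at a low level by KEAP1, which marks it for degradation, and under oxidative or electrophilic stress it enters the nucleus and binds antioxidant response elements near many of these genes. Hepatocytes are the main site of this chemistry, and the liver is the organ in which NRF2 target genes have been studied most.

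Smyd3 is a SET-domain protein methyltransferase, and the study asked what its loss does in livers exposed to diethylnitrosamine (DEN), a liver carcinogen. The 12 RNA libraries formed 4 groups of 3 mice: wild type without DEN (WT), Smyd3KO without DEN (KO), wild type given DEN (DEN_WT) and Smyd3KO given DEN (DEN_KO). The labels number the libraries of a group as replicates, and each is taken here as a separate mouse. All mice were 8.5 months old at sampling and are labelled C57BL6/CBA, although the growth protocol names C57Bl6. The treated groups had been given 25 mg/kg DEN once into the peritoneum. The knockout was a gene trap in intron 5 of Smyd3, present in every tissue, so reads from the exons before it can still be counted. No label says whether a DEN-treated sample held tumour, and the sex of the mice is not given in the sources used here. Chromatin from DEN-treated livers gave 3 lists of regions, each made from 2 replicates: Smyd3 in DEN_WT, and the promoter mark H3K4me3 (trimethylated lysine of histone H3) in DEN_WT and in DEN_KO.

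Values are the authors' normalized read counts, which summed to 22320634 to 28973396 per library. They carry no correction for gene length, so levels of different genes are not compared. Smyd3 itself stood at 79, 89 and 59 in WT mice, 29, 17 and 22 in KO mice, 57, 71 and 74 in DEN_WT mice and 12, 3 and 8 in DEN_KO mice. Every knockout library was thus below every wild-type library. Albumin, which marks hepatocytes, ranged from 904165 to 3386204 over the 12 libraries. All samples were pieces of whole liver, so fewer cells of a type and less RNA per cell cannot be told apart.

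Promoter sequences are given first for 9 genes, so that the letters stand beside the changes described below. Gsta2, Gsta3, both pi class GSTs, Gpx1, Prdx1 and Txnrd1 were higher in DEN_KO than in DEN_WT, Srxn1 was higher in DEN_WT than in WT, and Nfe2l2 encodes NRF2. Each line holds the 250 bases before a RefSeq start site of mouse build GRCm38.p6, read 5′ to 3′ along the gene's own strand. Capitals mark matches, on either strand, to TGANNNNGC, a loose form of the core of the antioxidant response element. Txnrd1 has 3 RefSeq start sites, and the window with a match to the stricter core is shown. The RefSeq starts were not matched to the starts of the deposited RNA table, which are used for the chromatin regions below. A printed sequence, such as that of Gsta2, may therefore lie at another start than the one whose regions are given.

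Gsta2 (chr9:78347146-78347395, reverse strand): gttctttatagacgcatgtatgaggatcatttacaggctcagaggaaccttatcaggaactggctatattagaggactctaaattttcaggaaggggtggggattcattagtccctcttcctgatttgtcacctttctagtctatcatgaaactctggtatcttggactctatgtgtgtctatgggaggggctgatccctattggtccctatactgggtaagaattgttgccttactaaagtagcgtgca
Gsta3 (chr1:21240335-21240584, forward strand): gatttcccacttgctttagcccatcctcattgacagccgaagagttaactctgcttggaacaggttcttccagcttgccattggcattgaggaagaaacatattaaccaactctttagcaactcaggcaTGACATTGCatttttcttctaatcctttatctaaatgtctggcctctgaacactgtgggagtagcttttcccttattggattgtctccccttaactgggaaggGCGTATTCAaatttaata
Gstp1 (chr19:4037913-4038162, reverse strand): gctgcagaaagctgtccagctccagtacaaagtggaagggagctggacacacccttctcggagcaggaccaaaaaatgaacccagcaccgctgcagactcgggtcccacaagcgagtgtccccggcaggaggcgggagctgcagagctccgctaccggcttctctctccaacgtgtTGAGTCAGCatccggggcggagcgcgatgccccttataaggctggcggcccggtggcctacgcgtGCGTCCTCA
Gstp2 (chr19:4042222-4042471, reverse strand): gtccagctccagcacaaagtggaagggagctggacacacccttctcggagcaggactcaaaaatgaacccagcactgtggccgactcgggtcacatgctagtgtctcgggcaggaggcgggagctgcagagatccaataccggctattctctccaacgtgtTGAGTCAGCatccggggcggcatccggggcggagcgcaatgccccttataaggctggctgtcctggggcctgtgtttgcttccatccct
Gpx1 (chr9:108338830-108339079, forward strand): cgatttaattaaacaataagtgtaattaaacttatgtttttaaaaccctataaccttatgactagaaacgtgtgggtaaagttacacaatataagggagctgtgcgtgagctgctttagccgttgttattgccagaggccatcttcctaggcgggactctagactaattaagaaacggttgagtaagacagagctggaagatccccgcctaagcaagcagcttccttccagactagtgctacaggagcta
Srxn1 (chr2:152105274-152105523, forward strand): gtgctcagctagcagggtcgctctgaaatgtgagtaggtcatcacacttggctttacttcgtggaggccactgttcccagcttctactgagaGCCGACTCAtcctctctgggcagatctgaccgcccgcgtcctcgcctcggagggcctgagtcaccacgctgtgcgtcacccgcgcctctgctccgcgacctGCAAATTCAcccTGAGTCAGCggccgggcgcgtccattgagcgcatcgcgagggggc
Prdx1 (chr4:116685349-116685598, forward strand): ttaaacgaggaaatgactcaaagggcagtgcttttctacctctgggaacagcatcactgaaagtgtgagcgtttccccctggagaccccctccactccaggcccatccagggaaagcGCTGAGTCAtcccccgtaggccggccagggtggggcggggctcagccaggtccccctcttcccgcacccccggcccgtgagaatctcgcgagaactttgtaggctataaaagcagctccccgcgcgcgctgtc
Txnrd1 (chr10:82858956-82859205, forward strand): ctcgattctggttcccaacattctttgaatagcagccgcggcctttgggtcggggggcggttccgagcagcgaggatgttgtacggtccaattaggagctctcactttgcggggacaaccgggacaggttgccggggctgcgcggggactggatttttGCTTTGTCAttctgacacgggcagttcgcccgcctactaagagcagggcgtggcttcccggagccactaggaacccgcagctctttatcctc
Nfe2l2 (chr2:75704664-75704913, reverse strand): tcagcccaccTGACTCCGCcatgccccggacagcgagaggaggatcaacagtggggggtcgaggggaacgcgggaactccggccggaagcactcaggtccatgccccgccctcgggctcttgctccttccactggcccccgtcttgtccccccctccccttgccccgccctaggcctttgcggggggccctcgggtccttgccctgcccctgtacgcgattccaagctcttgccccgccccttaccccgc

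RefSeq windows (250 bases before to 50 after a start) were matched for 35 of the 40 genes. The stricter core TGACNNNGC was present, on either strand, in 9 of these 35, namely Gsta3, Gstm5, Gstm7, Mgst1, Gclm, Prdx1, Txnrd1, Srxn1 and Nfe2l2. Over all genes with a window the share was 14.0%. The looser core TGANNNNGC was in 20 of the 35, and in 45.0% of all genes. The AP-1 core TGANTCA, which can lie inside the looser one, was in 6 of the 35 and in 8.97% of all genes. Gstp1 and Gstp2 both held TGAGTCAGC, at positions -74 and -89 from the start, where the AP-1 letters overlap the looser core, and Srxn1 held the same 9 letters at -45. Prdx1 held TGACTCAGC on the opposite strand at -133. The upstream sequences of Gstp1 and Gstp2 were 88.1% identical over their aligned bases. Neither Gsta2 nor Gpx1 held any form of the core in the bases shown. A match is a description of letters, and no binding of NRF2 was measured here.

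DEN-treated wild-type livers had less RNA of many GSTs and of Gpx1 than untreated wild-type livers. In DEN_WT against WT, 15 of the 38 tested genes were lower, 2 were higher and 21 did not pass (limma with Benjamini-Hochberg adjustment, threshold 0.05). Of all tested genes, 29.6% passed in this comparison, 13.5% lower and 16.1% higher. Groups did not overlap for 15 of the 38 with DEN_WT lower (20.9% of all tested genes) and for 4 with it higher (22.4%). The median log2 fold change was -0.16 over the 38 and -0.02 over all tested genes. Of the 21 tested GSTs, 12 were lower and 0 higher. DEN_WT replicate 2 held the lowest of the 12 values for 19 of the 40 genes, and without it 9 were lower and 4 higher. Over all genes 54.5% of the calls were higher, and 74.2% when libraries were scaled to equal sums, a scaling that moved the median of all genes to 0.19 and left 9 of the genes lower.

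In DEN-treated mice, livers without Smyd3 had more RNA of all 4 alpha class, 4 of 7 mu class and both pi class GSTs and of Gpx1 than wild-type livers, and less of Nfe2l2. In DEN_KO against DEN_WT, 16 of the 38 were higher, 1 was lower and 21 did not pass. Of all tested genes, 33.9% passed, 16.4% higher and 17.4% lower. Groups did not overlap for 20 of the 38 with DEN_KO higher (23.6% of all tested genes) and for 1 with DEN_KO lower (26.4%). The median was 0.61 over the 38 and -0.06 over all tested genes. The count of higher genes ran from 11 without DEN_WT replicate 2 to 18 without DEN_WT replicate 1. Gstm3, Gstm5, Gstp2, Gsto1 and Prdx1 no longer passed without DEN_WT replicate 2. The count of lower genes was 2 without DEN_WT replicate 2 (Gpx3 in addition to Nfe2l2) and 3 without DEN_KO replicate 2 (Srxn1 and Slc7a11 in addition). This comparison and the one above share the DEN_WT libraries, so their values are given side by side and no relation between them is drawn.

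Without DEN, no gene of the 40 passed between KO and WT. By limma, 0 of the 38 passed, against 1.16% of all tested genes (0.546% higher and 0.613% lower), and no other tool was run, while 6 were higher and 2 lower at an unadjusted p under 0.05, a level that 15.1% of all genes reached. Groups did not overlap, with KO higher, for 7 genes (Gsta4, Gstm1, Gstm2, Gstm3, Gstm4, Gstt3 and Gss), where the share over all genes was 8.4%, and for 0 genes with KO lower, where it was 9.05%. The split of calls over all genes was 47.1% higher, and 65.1% with libraries scaled to equal sums. Gstm3 passed without DEN_WT replicate 1, Gstm4 passed without WT replicate 3, and without KO replicate 3 Gstm1 and Gstm3 passed as higher and Gstk1 as lower. An exact test of 3 against 3 libraries cannot go below p = 0.1.

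In DEN_KO against KO, 5 of the 38 were higher (Gstt2, Gss, Gpx1, Cbr1 and Cbr3) and 0 lower by limma. Of all tested genes, 14.9% passed (8.91% higher and 6.02% lower), and 59.7% of those calls were higher (69.9% with libraries scaled to equal sums). At an unadjusted p under 0.05, 10 were higher and 2 lower, a level that 30.4% of all genes reached. Groups did not overlap for 12 of the 38 with DEN_KO higher (18.6% of all tested genes) and for 6 with it lower (16.5%). The difference between genotypes in the change with DEN, tested as an interaction (the change in KO minus the change in WT), passed for 10 of the 38 and was above 0 for all 10. Of all tested genes, 16.6% passed this test, 8.73% above 0 and 7.83% below, so that 52.7% of calls were above 0, and 38.2% with libraries scaled to equal sums. The 10 are Gsta1, Gsta2, Gsta3, Gsta4, Gstp1, Gstt2, Gsto1, Gstk1, Gpx1 and Cbr1. Without WT replicate 2 the count was 6, with Gsta1, Gstp1, Gsto1 and Gstk1 no longer past the threshold.

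**Figure D1:**
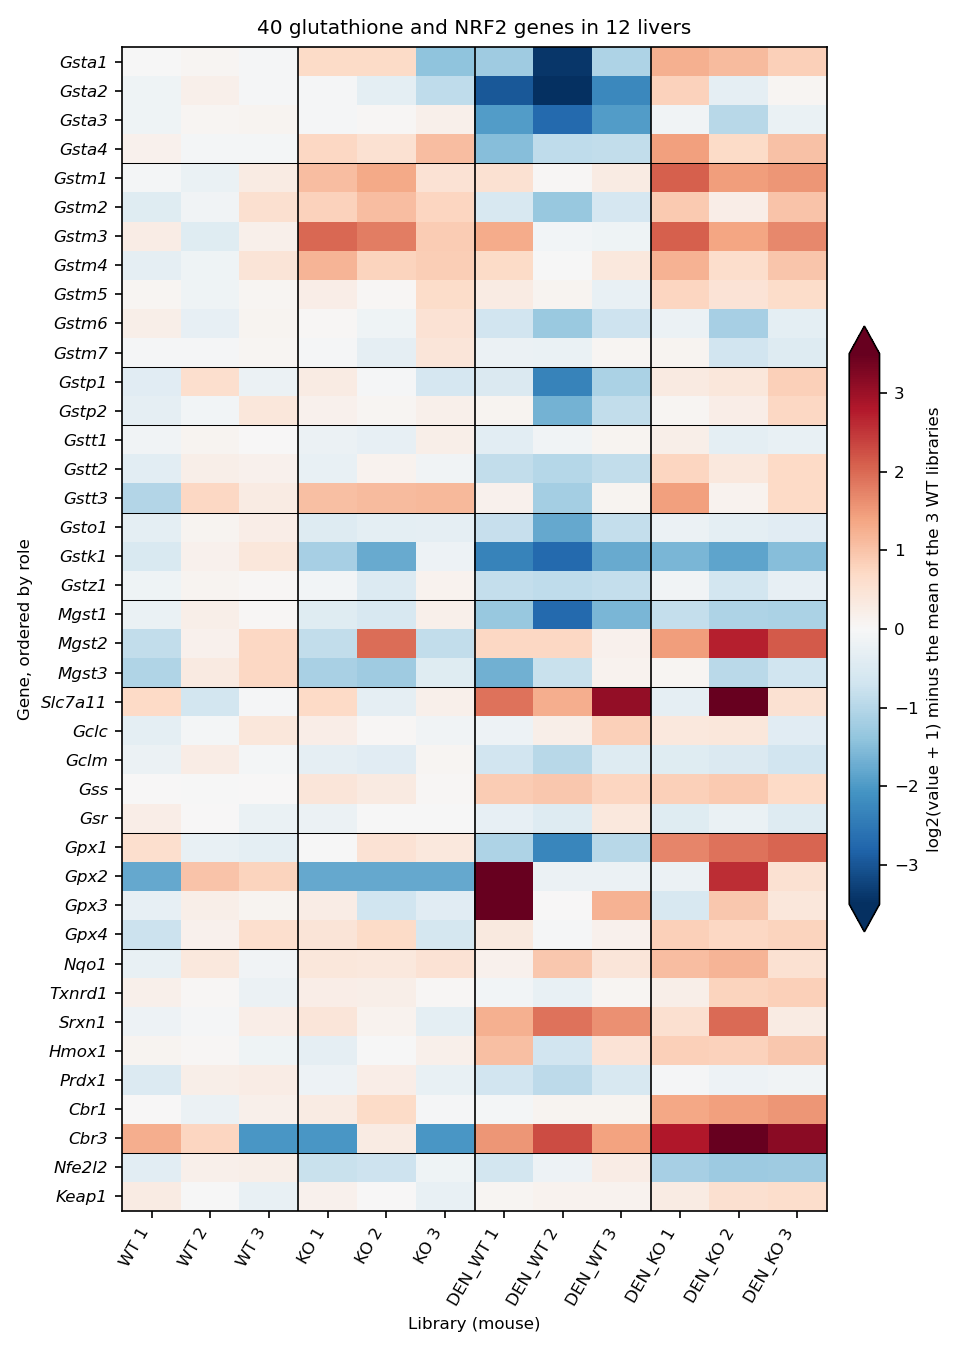
Rows are the 40 genes in order of role and columns the 12 libraries, coloured by log2(value + 1) minus the mean of the 3 WT libraries, with arrows on the scale for values beyond its ends. The alpha class and Gpx1 are blue in all 3 DEN_WT libraries, Gpx1 is red in all 3 DEN_KO libraries, and Cbr3, Slc7a11, Gpx2 and Mgst2 are genes of low values whose colours swing between single libraries.

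The alpha class GSTs, which carry much of the hepatocyte's peroxidase and conjugating activity toward lipid peroxidation products, moved together. All 4 were lower in DEN_WT than in WT, all 4 were higher in DEN_KO than in DEN_WT, and all 4 passed the interaction. Gsta2 (mm9 chr9:78178825-78203595, minus strand) stood at 1005, 1261 and 1085 in WT mice, 1086, 880 and 598 in KO mice, 141, 89 and 230 in DEN_WT mice and 1930, 894 and 1157 in DEN_KO mice. The DEN_WT libraries were far below all the others, which overlapped. The fall in DEN_WT was 7.76-fold (log2 -2.96 ± 0.34 SE, adjusted p = 4.3e-05), DEN_KO was 8.78-fold above DEN_WT (adjusted p = 6.3e-05), and the interaction was 3.56 ± 0.48 (adjusted p = 0.001).

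Gsta3 (chr1:21230670-21255442) was at 28944, 33275 and 33877 in WT mice, 31095, 33076 and 36467 in KO mice, 8214, 4810 and 8258 in DEN_WT mice and 29585, 16320 and 26952 in DEN_KO mice. DEN_WT again lay below every other library, and DEN_KO replicate 2 lay between DEN_WT and the rest. The gene was 4.64-fold lower in DEN_WT than in WT (adjusted p = 6.4e-05) and 3.42-fold higher in DEN_KO than in DEN_WT (adjusted p = 4e-04), with an interaction of 1.71 ± 0.38 (adjusted p = 0.01).

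Gsta4, which acts on 4-hydroxynonenal, was at 1597, 1370 and 1360 in WT mice, 2399, 2069 and 3024 in KO mice, 511, 783 and 786 in DEN_WT mice and 3882, 2289 and 2932 in DEN_KO mice. Both knockout groups lay above WT, and DEN_WT below it. The log2 fold changes were -1.08 ± 0.22 in DEN_WT against WT (adjusted p = 0.0027), 2.12 ± 0.22 in DEN_KO against DEN_WT (adjusted p = 5.5e-05) and 0.78 ± 0.22 in KO against WT, which did not pass (adjusted p = 0.12). The interaction was 1.34 ± 0.32 (adjusted p = 0.013).

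Gsta1 was at 154, 166 and 151 in WT mice, 251, 249 and 58 in KO mice, 66, 14 and 74 in DEN_WT mice and 372, 340 and 281 in DEN_KO mice. DEN_KO lay above every other library, and KO replicate 3 fell among the DEN_WT values. It was 3.74-fold lower in DEN_WT than in WT (adjusted p = 0.026) and 7.81-fold higher in DEN_KO than in DEN_WT (adjusted p = 0.0021). Its interaction was 2.99 ± 0.83 (adjusted p = 0.027). The fall in DEN_WT no longer passed without any one of the WT libraries or without DEN_WT replicate 2 (-1.16), nor with libraries scaled to equal sums (-1.69). The interaction no longer passed without WT replicate 2 (2.95) or DEN_KO replicate 1 (2.90), or without the trend (adjusted p = 0.052). Gsta1 and Gsta2 are near-identical copies whose reads the authors' counting could split, and their summed value changed by -2.76 in DEN_WT against WT (adjusted p = 0.00012) and by 3.09 in DEN_KO against DEN_WT (adjusted p = 9.6e-05), with an interaction of 3.44 (adjusted p = 0.0015).

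The mu class genes lie side by side on chromosome 3, from Gstm5, whose start site is at 107698739, to Gstm4, whose start site on the minus strand is at 107847812 (mm9). Here 4 of 7 were higher in DEN_KO than in DEN_WT (Gstm1, Gstm2, Gstm3 and Gstm5), 2 were lower in DEN_WT than in WT (Gstm2 and Gstm6), and 0 of 7 passed the interaction. Gstm1, an abundant liver GST, was at 7846, 7056 and 10103 in WT mice, 17429, 20535 and 11621 in KO mice, 12004, 8506 and 10047 in DEN_WT mice and 35081, 22805 and 24269 in DEN_KO mice. Both knockout groups lay above WT, and DEN_KO lay above all other libraries. Gstm1 was 2.66-fold higher in DEN_KO than in DEN_WT (adjusted p = 0.0012), and KO was 1.95-fold above WT without passing (log2 0.96 ± 0.25, adjusted p = 0.09).

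Gstm3 was at 652, 405 and 619 in WT mice, 2215, 1895 and 1020 in KO mice, 1345, 513 and 491 in DEN_WT mice and 2313, 1434 and 1768 in DEN_KO mice. KO did not overlap WT, and the log2 difference of 1.57 ± 0.38 did not pass (adjusted p = 0.065). In DEN_KO against DEN_WT it was 1.37 ± 0.38 (adjusted p = 0.013), and its interaction was -0.20 ± 0.53 (adjusted p = 0.83). That call was lost without DEN_WT replicate 2 or 3 or DEN_KO replicate 1. Gstm3 and Gstm6 overlap by 1417 bases on the same strand, so reads there are uncertain between them.

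Gstm4 showed 910, 1020 and 1528 in WT against 2552, 1935 and 2028 in KO, and its difference of 0.94 ± 0.23 did not pass either (adjusted p = 0.076). In DEN_KO against DEN_WT, Gstm2 differed by 1.54 ± 0.28 (adjusted p = 0.0013) and Gstm5 by 0.58 ± 0.21 (adjusted p = 0.045). The Gstm5 call was lost without WT replicate 2 or 3, KO replicate 1, DEN_WT replicate 2 or 3, or any one DEN_KO library, after centring by span and GC (0.30), with equal sums (0.55), without the filter, with only the DEN groups in the fit, and with the replicate block (adjusted p = 0.058). The fall of Gstm2 in DEN_WT was lost without WT replicate 2 or 3, KO replicate 1, or DEN_WT replicate 2 or 3, and that of Gstm6 without WT replicate 1 or 3 or DEN_WT replicate 2. With libraries scaled to equal sums neither passed (-0.61 and -0.68), and the Gstm2 call was also lost without the filter, without the trend and with only WT and DEN_WT in the fit. Gstm4 passed as higher in DEN_KO against DEN_WT without WT replicate 3, DEN_WT replicate 1 or DEN_KO replicate 2, and with the replicate block. Gstm7 passed in no comparison, and its libraries ranged from 929 to 1983.

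Gstp1 and Gstp2 are the pi class pair on chromosome 19, near-identical copies that make the pi GST known as a marker of preneoplastic foci in the rat. Gstp1 (chr19:4035411-4037921, minus strand) was at 10816, 21764 and 12557 in WT mice, 17593, 13904 and 9488 in KO mice, 10042, 2833 and 6654 in DEN_WT mice and 17802, 18878 and 25802 in DEN_KO mice. DEN_KO lay above DEN_WT and KO, and overlapped WT through WT replicate 2. It was 2.5-fold lower in DEN_WT than in WT (adjusted p = 0.025) and 3.58-fold higher in DEN_KO than in DEN_WT (adjusted p = 0.004), with an interaction of 1.96 ± 0.57 (adjusted p = 0.034). With the copies summed, the changes were -1.09 (adjusted p = 0.038) and 1.51 (adjusted p = 0.0069), and the interaction of 1.52 did not pass (adjusted p = 0.059). The fall of Gstp1 in DEN_WT was lost without WT replicate 2 (-1.02) or DEN_WT replicate 2 (-0.81), by quantile normalization (-0.89), with equal sums (-1.11) and with only WT and DEN_WT in the fit. Its interaction was lost without any one of 6 libraries, WT replicate 2, KO replicates 2 and 3, DEN_WT replicate 2 and DEN_KO replicates 2 and 3, with values from 1.45 to 2.02. It was also lost by quantile normalization (1.47), with equal sums (1.80), without the filter, without the trend and with the replicate block (adjusted p = 0.05). Gstp2 was higher in DEN_KO than in DEN_WT by 1.15 ± 0.35 (adjusted p = 0.021) although DEN_WT replicate 1, at 12328, lay inside the DEN_KO range, and this was lost without DEN_WT replicate 2 or 3 or DEN_KO replicate 3, by quantile normalization and after centring by span and GC (0.76 in each case), and with only the DEN groups in the fit.

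Of the theta class, Gstt2 passed the interaction, and Gstt1 and Gstt3 passed in no comparison with all libraries kept. Gstt2 was at 1041, 1568 and 1504 in WT mice, 1117, 1467 and 1249 in KO mice, 747, 677 and 747 in DEN_WT mice and 2285, 1758 and 2186 in DEN_KO mice. The DEN_WT libraries lay below all others and the DEN_KO libraries above them, with WT and KO overlapping in between. Its log2 fold changes were -0.90 ± 0.18 in DEN_WT against WT (adjusted p = 0.0023), 1.51 ± 0.18 in DEN_KO against DEN_WT (adjusted p = 0.00011) and 0.70 ± 0.18 in DEN_KO against KO (adjusted p = 0.022), and the interaction was 1.6 ± 0.26 (adjusted p = 0.0023). The rise over KO was lost without KO replicate 1 (0.61), DEN_KO replicate 1 (0.63) or DEN_KO replicate 3 (0.66), and after centring by gene span and GC (0.37). Gstt3 passed as higher in DEN_KO against DEN_WT without WT replicate 1 or DEN_KO replicate 2. Gstt1 ranged from 4585 to 6922 over the 12 libraries.

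The omega, kappa and zeta class genes were all lower in DEN_WT than in WT. Gsto1, which reduces dehydroascorbate and methylated arsenic compounds, was at 1738, 2349 and 2601 in WT mice, 1613, 1732 and 1780 in KO mice, 1248, 633 and 1230 in DEN_WT mice and 1899, 1731 and 1674 in DEN_KO mice. Gstk1, found in mitochondria and peroxisomes, was at 4556, 7323 and 8636 in WT mice, 2960, 1952 and 5793 in KO mice, 1318, 998 and 1940 in DEN_WT mice and 2186, 1836 and 2354 in DEN_KO mice. For Gsto1 only DEN_WT stood apart, while for Gstk1 both DEN groups lay below all WT libraries and overlapped each other.

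Gsto1 fell by 1.15 ± 0.23 on the log2 scale in DEN_WT (adjusted p = 0.0025) and was higher in DEN_KO than in DEN_WT by 0.83 ± 0.23 (adjusted p = 0.015). The second of these was lost without DEN_WT replicate 2 (0.51). Gstk1 fell by 2.27 ± 0.35 in DEN_WT (adjusted p = 0.00044), and its 0.63 ± 0.35 in DEN_KO against DEN_WT did not pass (adjusted p = 0.19). Both passed the interaction, Gsto1 at 1.20 ± 0.33 (adjusted p = 0.027) and Gstk1 at 1.66 ± 0.50 (adjusted p = 0.038). The Gsto1 interaction was lost without any one of WT replicates 2 and 3, KO replicate 1 and DEN_KO replicate 1 (values of 1.08 to 1.16), and without the trend. That of Gstk1 was lost without any one of 8 libraries, WT replicates 2 and 3, KO replicates 1 and 2, DEN_WT replicates 1 and 2 and DEN_KO replicates 1 and 3 (1.30 to 1.64), after centring by gene span and GC (1.41), without the filter and without the trend. Gstz1, an enzyme of tyrosine breakdown, was lower in DEN_WT by 0.85 on the log2 scale (adjusted p = 0.0064), and by quantile normalization the difference was -0.29 and did not pass.

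Mgst1, the membrane-bound GST of the endoplasmic reticulum and mitochondria, was at 99497, 136350 and 120969 in WT mice, 88558, 80294 and 132696 in KO mice, 46641, 17734 and 38762 in DEN_WT mice and 66556, 55553 and 54528 in DEN_KO mice. DEN_WT lay lowest, DEN_KO next, and the untreated groups overlapped each other above both. It was 3.71-fold lower in DEN_WT than in WT (adjusted p = 0.0017), and neither its 0.88 ± 0.36 in DEN_KO against DEN_WT (adjusted p = 0.074) nor its interaction of 1.15 ± 0.51 (adjusted p = 0.14) passed. Without DEN_WT replicate 1 the first of these was 1.16 and passed. Mgst3 ranged from 80 to 432 and passed in no comparison. Mgst2 was not tested, with values of 0 to 11. Summed, the 22 GSTs made up 0.798 to 0.894% of all values in WT, 0.853 to 0.936% in KO, 0.259 to 0.52% in DEN_WT and 0.685 to 0.892% in DEN_KO. Mgst1 had the largest values in this sum, and without it the shares were 0.393 to 0.448% in WT, 0.449 to 0.517% in KO, 0.184 to 0.311% in DEN_WT and 0.447 to 0.61% in DEN_KO. DEN_WT was lowest on both sums, while DEN_KO overlapped WT on the first and, but for replicate 2, lay above it on the second.

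Of the 5 genes that supply glutathione and its cystine, 1 was lower and 1 higher in DEN_WT than in WT, and 0 passed in DEN_KO against DEN_WT or in the interaction. Gclc, the catalytic subunit of the rate-limiting ligase, was at 5300, 6427 and 8798 in WT mice, 7823, 6881 and 6167 in KO mice, 5909, 7756 and 11827 in DEN_WT mice and 8600, 8869 and 5053 in DEN_KO mice. All 4 groups overlapped, and its difference in DEN_KO against DEN_WT was -0.16 ± 0.28 (adjusted p = 0.69). By quantile normalization Gclc passed as higher in DEN_WT against WT (0.79). Gclm, the modifier subunit, was at 4378, 6002 and 4759 in WT mice, 4024, 3770 and 5222 in KO mice, 3135, 2567 and 3680 in DEN_WT mice and 3715, 3507 and 3125 in DEN_KO mice. Both DEN groups lay below WT and KO, and overlapped each other. Gclm fell by 0.69 ± 0.19 in DEN_WT (adjusted p = 0.013), a call lost without WT replicate 2 or DEN_WT replicate 2 (0.56 lower on the log2 scale in each case), by quantile normalization (-0.44) or with equal sums (-0.48), and did not differ past the threshold between DEN_KO and KO (-0.32 ± 0.19, adjusted p = 0.27).

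Gss, glutathione synthetase, was at 1350, 1333 and 1344 in WT mice, 1787, 1658 and 1371 in KO mice, 2506, 2576 and 2271 in DEN_WT mice and 2391, 2513 and 2197 in DEN_KO mice. Both DEN groups lay above both untreated groups and overlapped each other. It rose by 0.87 ± 0.14 in DEN_WT over WT (adjusted p = 0.00051) and by 0.57 ± 0.14 in DEN_KO over KO (adjusted p = 0.018), the latter lost without DEN_KO replicate 2 (0.52). The interaction was -0.30 ± 0.20 (adjusted p = 0.32). Gss overlaps Acss2 by 22544 bases on the opposite strand, Acss2 had a median of 4143.5, and the use of strand in counting is not given, so reads of the 2 genes cannot be told apart there.

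Gsr, which returns oxidized glutathione to its reduced form, was at 1386, 1205 and 1002 in WT mice, 1038, 1172 and 1170 in KO mice, 966, 863 and 1547 in DEN_WT mice and 892, 1006 and 875 in DEN_KO mice. It passed in no comparison. Slc7a11, the cystine importer, was at 9, 3 and 5 in WT mice, 9, 4 and 6 in KO mice, 22, 14 and 51 in DEN_WT mice and 4, 256 and 8 in DEN_KO mice. DEN_WT did not overlap WT, the fitted difference of 2.07 ± 1.09 did not pass (adjusted p = 0.17), and the 256 came from DEN_KO replicate 2 alone.

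Of the 3 tested peroxidases, Gpx1, the cytosolic enzyme that removes hydrogen peroxide, was the one with calls. Gpx1 (chr9:108241607-108242671) was at 22816, 12656 and 11917 in WT mice, 14948, 21240 and 19550 in KO mice, 7089, 3072 and 7708 in DEN_WT mice and 49719, 56506 and 61693 in DEN_KO mice. DEN_WT lay below all other libraries and DEN_KO above all others, with WT and KO overlapping. It was 2.74-fold lower in DEN_WT than in WT (adjusted p = 0.0057), 10.1-fold higher in DEN_KO than in DEN_WT (adjusted p = 4.6e-05) and 3.03-fold higher in DEN_KO than in KO (adjusted p = 0.0087). The interaction was 3.05 ± 0.48 (adjusted p = 0.0021).

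Gpx1 is also the shortest of the 40 genes, at 1065 bases from first to last annotated base, and short genes as a class were higher in DEN_KO. Protein-coding genes spanning up to 1000 bases had a median log2 fold change of 1.11 in DEN_KO against DEN_WT and a median interaction of 1.26 (301 genes). Those of 1000 to 2000 bases, the class of Gpx1, had 0.23 and 0.38 (371 genes), and those over 100000 bases -0.22 and -0.28 (1762 genes). Of 77 tested ribosomal protein genes, whose spans were not summarized, 42 were higher and 2 lower, with a median of 0.73. After each library was centred within bins of gene span and GC share, Gpx1 differed by 2.94 ± 0.30 in DEN_KO against DEN_WT (adjusted p = 6.2e-05), its interaction was 2.71 ± 0.43 (adjusted p = 0.0026), and 14 of the genes were higher and 1 lower in that comparison. Gsta2 and Gsta3, at 24771 and 24773 bases, lie in a span class (20000 to 50000 bases) whose median was -0.16.

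**Figure D2:**
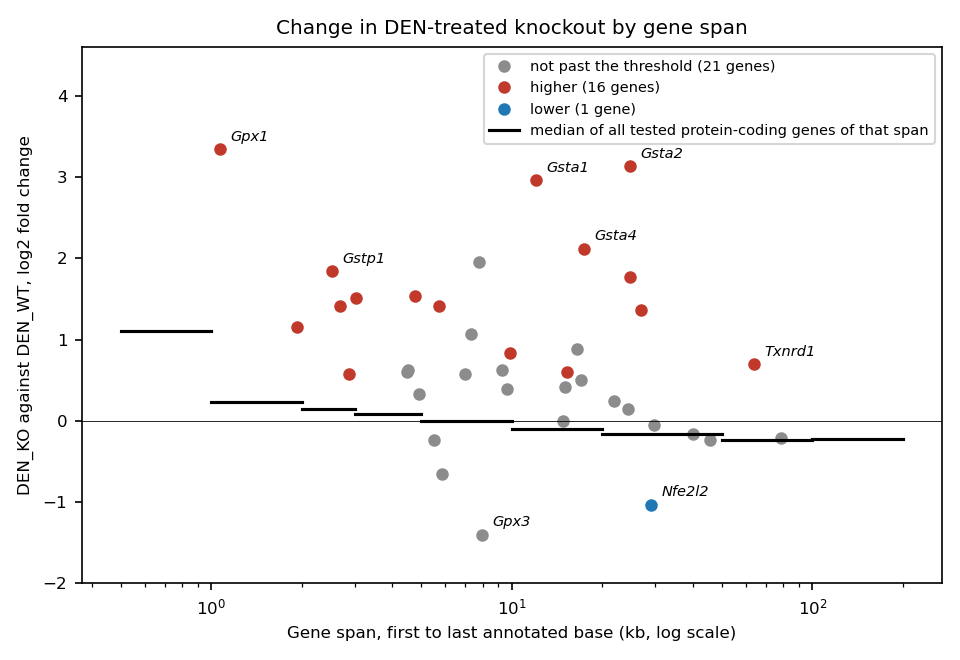
Points are the 38 tested genes, placed by span on a log axis and by log2 fold change in DEN_KO against DEN_WT, coloured by call, and black bars are medians of all tested protein-coding genes of that span (the outermost classes are open-ended and their bars are cut short). Gpx1 sits at the short end, 3.34 against a median of 0.23 for its span class, just above the class edge at 1000 bases. The next shorter class had a median of 1.11. Gsta2 is at 3.13 against -0.16.

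Gpx4, which protects membranes from lipid peroxides, did not pass in DEN_KO against DEN_WT (0.62 ± 0.33, adjusted p = 0.16), although the DEN_KO libraries (3085, 2880 and 2990) lay above those of DEN_WT (2192, 1698 and 1950). Gpx3, the plasma enzyme, reached 1839 in DEN_WT replicate 1 and 82 to 316 in the 11 other libraries, and passed in no comparison with all libraries kept. Gpx2, a peroxidase best known from the gut, was at 48 in that same DEN_WT library and at 0 to 20 elsewhere, and was not tested. It lies inside Fntb, on the other strand.

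The remaining NRF2 targets split by gene. Cbr1, a carbonyl reductase, was at 429, 370 and 483 in WT mice, 521, 681 and 416 in KO mice, 405, 453 and 450 in DEN_WT mice and 1086, 1141 and 1243 in DEN_KO mice. DEN_KO stood above all 9 other libraries, which overlapped. It was 2.65-fold higher than in DEN_WT (adjusted p = 0.00017) and 2.18-fold higher than in KO (adjusted p = 0.0022), with no change past the threshold in DEN_WT against WT (0.04 ± 0.18, adjusted p = 0.91) and an interaction of 1.09 ± 0.26 (adjusted p = 0.014). With libraries scaled to equal sums the interaction was 0.94 and did not pass. Its neighbour Cbr3 was low throughout, at 9, 6 and 0 in WT mice, 0, 4 and 0 in KO mice, 11, 19 and 10 in DEN_WT mice and 28, 143 and 36 in DEN_KO mice. The DEN_KO libraries lay above all others, and the difference from KO was 4.97 ± 0.90 on the log2(value + 1) scale (adjusted p = 0.0041), a size that depends on the added 1 because KO held 0 to 4. Its 1.96 ± 0.90 over DEN_WT did not pass (adjusted p = 0.11), but did with 10 added in place of 1 (1.49) and with only the DEN groups in the fit. The interaction of 3.23 ± 1.28 did not pass (adjusted p = 0.1), but did without WT replicate 3 (4.25) and with the replicate block (adjusted p = 0.049).

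Srxn1, which repairs overoxidized peroxiredoxins, was at 781, 856 and 1042 in WT mice, 1197, 970 and 702 in KO mice, 2106, 3340 and 2704 in DEN_WT mice and 1297, 3485 and 1073 in DEN_KO mice. All DEN_WT libraries and DEN_KO replicate 2 were high, and the other DEN_KO libraries lay near the untreated ones. It rose 3.01-fold in DEN_WT over WT (adjusted p = 0.0045). In DEN_KO against DEN_WT it differed by -0.66 ± 0.36 (adjusted p = 0.17), and without DEN_KO replicate 2 by -1.18, which passed, as did its interaction then (-1.25).

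Prdx1, a peroxiredoxin, was lower in DEN_WT than in WT by 0.71 on the log2 scale (adjusted p = 0.025) and higher in DEN_KO than in DEN_WT by 0.60 ± 0.22 (adjusted p = 0.048). The first was lost without WT replicate 2 or 3 or DEN_WT replicate 2, and the second without any one of 8 libraries, WT replicate 2, KO replicate 1 and each DEN_WT and DEN_KO library. By quantile normalization neither passed (-0.19 and 0.15), nor with libraries scaled to equal sums (-0.50 and 0.57). The first was also lost with only WT and DEN_WT in the fit, and the second without the filter, without the trend and with the replicate block (adjusted p = 0.062). Txnrd1, cytosolic thioredoxin reductase, was at 1432, 1295 and 1619 in DEN_WT and 1788, 2632 and 2732 in DEN_KO, a difference of 0.70 ± 0.18 (adjusted p = 0.0094). Nqo1, the quinone reductase often read as the NRF2 marker gene, was at 68, 106 and 74 in WT mice, 107, 105 and 116 in KO mice, 91, 157 and 109 in DEN_WT mice and 171, 186 and 118 in DEN_KO mice. It passed in no comparison, and in DEN_KO against DEN_WT its difference was 0.42 ± 0.26 (adjusted p = 0.24). With libraries scaled to equal sums it passed in DEN_WT against WT (0.72).

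Hmox1, the heme oxygenase, was at 357, 341 and 298 in WT mice, 268, 325 and 373 in KO mice, 694, 206 and 463 in DEN_WT mice and 592, 585 and 639 in DEN_KO mice. DEN_KO lay above both untreated groups, and DEN_WT spread across them all. It passed in no comparison with all libraries kept, and passed in 3 of them once 1 library was left out: in DEN_WT against WT without DEN_WT replicate 2 (0.77), in DEN_KO against DEN_WT without DEN_WT replicate 1 (0.97), and in DEN_KO against KO without DEN_WT replicate 1 or 2 or with only those groups in the fit (0.92 in each case).

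Nfe2l2 itself (chr2:75513570-75542698, minus strand) was at 2909, 4213 and 4304 in WT mice, 2174, 2268 and 3368 in KO mice, 2382, 3299 and 4512 in DEN_WT mice and 1690, 1554 and 1592 in DEN_KO mice. The DEN_KO libraries were below all 9 others. It was 2.04-fold lower in DEN_KO than in DEN_WT (log2 -1.03 ± 0.24, adjusted p = 0.0056), the only one of the 38 lower in that comparison. In DEN_KO against KO it differed by -0.66 ± 0.24 (adjusted p = 0.079) and in KO against WT by -0.56 ± 0.24 (adjusted p = 0.29), and the interaction was -0.47 ± 0.34 (adjusted p = 0.37).

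Keap1, the NRF2 inhibitor, was at 1649, 1343 and 1123 in WT mice, 1517, 1363 and 1139 in KO mice, 1428, 1467 and 1463 in DEN_WT mice and 1660, 2007 and 2058 in DEN_KO mice. DEN_KO lay above every other library, and its differences of 0.39 ± 0.17 from DEN_WT (adjusted p = 0.091) and 0.51 ± 0.17 from KO (adjusted p = 0.056) did not pass. The second passed without WT replicate 1 or WT replicate 3 and by quantile normalization (0.53). NRF2 is controlled mainly through its protein, and protein was not measured here.

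**Figure D3:**
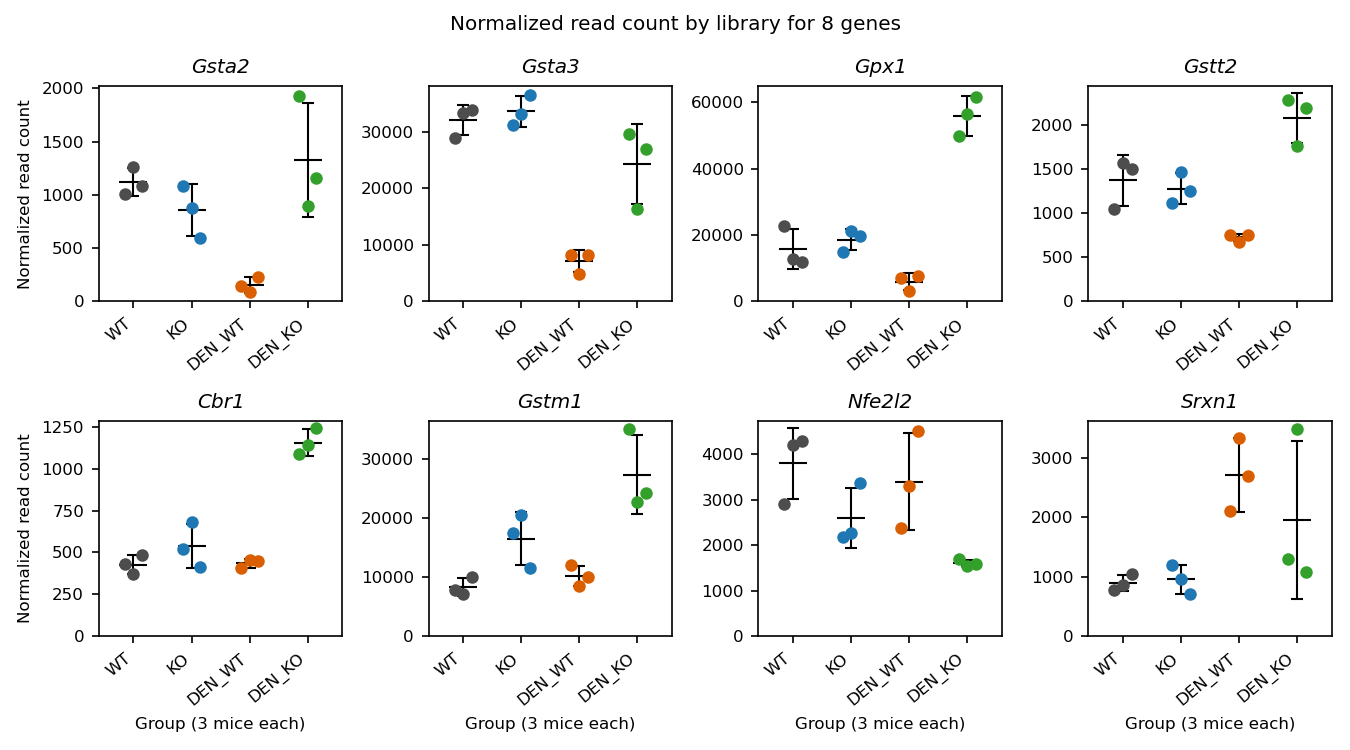
Normalized read count (vertical axes from 0) of 8 genes in WT, KO, DEN_WT and DEN_KO, with 1 point per library and a bar and whiskers for the mean and SD of 3 mice. Gsta2, Gsta3, Gpx1 and Gstt2 are lowest in DEN_WT, and Cbr1 is high in DEN_KO alone. Gstm1 lies above WT in both knockout groups, although KO against WT did not pass and KO overlaps DEN_WT. Nfe2l2 is lowest in DEN_KO, and Srxn1 is high in DEN_WT and in DEN_KO replicate 2.

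**Figure D4:**
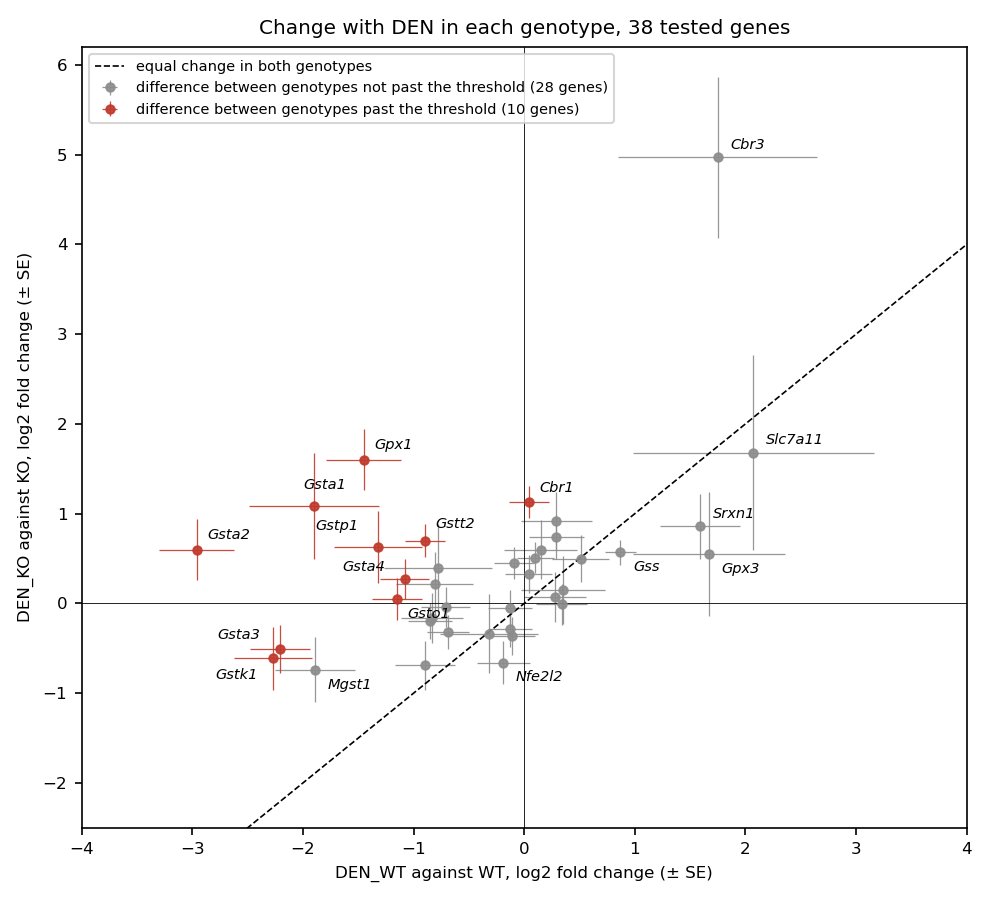
Each point is 1 of the 38 tested genes, with its log2 fold change in DEN_WT against WT on the horizontal axis and in DEN_KO against KO on the vertical axis, both ± SE, and red marks the 10 genes past the threshold in the interaction. The red points lie above the dashed line of equal change, with Gpx1 at -1.45 and 1.6, Gsta2 at -2.96 and 0.60, and Gstk1 at -2.27 and -0.61.

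Other genes of the pathway were taken from a list of 103, of which 101 were in the table and 96 were tested. In DEN_WT against WT, 31 were lower and 17 higher, and in DEN_KO against DEN_WT, 38 were higher and 13 lower. Over all tested genes the shares were 13.5% lower and 16.1% higher in the first comparison, and 16.4% higher and 17.4% lower in the second. The medians were -0.36 and 0.50, against -0.02 and -0.06 over all tested genes. Without DEN 1 was higher and 1 lower in KO, and the interaction passed for 29 above 0 and 12 below (8.73% and 7.83% of all tested genes).

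Some of these genes rose in DEN_WT. G6pdx, the first enzyme of the pentose phosphate pathway and a source of NADPH, was at 47, 96 and 60 in WT mice, 64, 95 and 177 in KO mice, 526, 664 and 677 in DEN_WT mice and 177, 193 and 182 in DEN_KO mice. It rose by 3.24 in DEN_WT (adjusted p = 1.8e-05) and differed by -1.74 in DEN_KO against DEN_WT (adjusted p = 0.0016), with an interaction of -2.40 (adjusted p = 0.0056). Ptgr1, a prostaglandin reductase and NRF2 target, rose by 2.78 in DEN_WT (adjusted p = 1.7e-05), and its interaction was -2.14 (adjusted p = 0.0045). Slc1a4, a neutral amino acid transporter that also carries cysteine, rose by 3.40 in DEN_WT (adjusted p = 0.00029), differed by -2.51 in DEN_KO against DEN_WT (adjusted p = 0.0022), and did not pass the interaction (-2.08, adjusted p = 0.061). Sod1, cytosolic superoxide dismutase, was at 3867, 1697 and 2218 in DEN_WT and 14155, 10689 and 11779 in DEN_KO, a difference of 2.31 (adjusted p = 0.00032).

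Markers of hepatocyte zones and of sex-biased liver expression were also counted. Of all tested genes, 13.5% were lower and 16.1% higher in DEN_WT against WT. In DEN_KO against DEN_WT, 16.4% were higher and 17.4% lower. The 10 pericentral hepatocyte markers summed to 213832 to 274343 in WT, 222814 to 233643 in KO, 15988 to 66885 in DEN_WT and 116121 to 180636 in DEN_KO, sums led by Cyp2e1. In DEN_WT against WT, 5 of these 10 were lower and 0 higher, and in DEN_KO against DEN_WT 4 were higher and 0 lower. Of 10 periportal markers, 5 were lower and 1 higher in the first comparison, and 5 higher and 1 lower in the second. Of 10 male-biased liver genes, 8 were lower in DEN_WT than in WT and 6 higher in DEN_KO than in DEN_WT, and of 11 tested female-biased genes 6 were higher and 1 lower in DEN_WT than in WT, and 2 higher and 1 lower in DEN_KO than in DEN_WT. The male-biased genes summed to 332232 to 510343 in WT, 167816 to 618636 in KO, 286985 to 641791 in DEN_WT and 256222 to 437164 in DEN_KO, sums led by Serpina1e, which reached 598324 in DEN_WT. The female-biased genes summed to 1542 to 3506 in WT, 2280 to 3585 in KO, 46648 to 96680 in DEN_WT and 9016 to 27178 in DEN_KO. Most of the sum in both DEN groups was Cyp2a4 alone. It was at 90792, 37393 and 45636 in DEN_WT and 8458, 24311 and 6845 in DEN_KO. The part of gene span in the value of Gpx1 was measured only by the centring above. The part of hepatocyte zone and of sex-biased expression in the GST values was not tested.

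Among the 11 general hepatocyte markers, Cps1, Ass1 and Pck1 are also in the periportal list. Of these 11, 1 was higher and 2 lower in DEN_WT than in WT, and 5 were higher and 0 lower in DEN_KO than in DEN_WT. Their sums, led by albumin, were 2298212 to 2547510 in WT, 2006046 to 3380150 in KO, 3275061 to 4913559 in DEN_WT and 1987666 to 2874600 in DEN_KO. Of 10 endothelial markers 5 were higher in DEN_WT than in WT and 2 lower in DEN_KO than in DEN_WT, and of 8 tested T, B and NK cell markers 0 passed in either comparison by limma. Of 8 tested cholangiocyte markers, 3 were higher in DEN_WT than in WT and 3 lower in DEN_KO than in DEN_WT. Their sum of 10468 to 17459 in DEN_WT, against 1284 to 1573 in WT, 1174 to 1260 in KO and 1575 to 2353 in DEN_KO, was led by Spp1. Of 11 macrophage markers, 0 passed in DEN_WT against WT by limma and 2 were higher in DEN_KO than in DEN_WT. Macrophage sums were 7266 to 7823 in WT, 8389 to 9796 in KO, 4475 to 15885 in DEN_WT and 13336 to 18578 in DEN_KO. Of 10 stellate cell and fibroblast markers, 5 were higher and 1 lower in DEN_WT than in WT, and 6 were lower and 0 higher in DEN_KO than in DEN_WT. Their sums were 4626 to 5028 in WT, 3414 to 4490 in KO, 5724 to 9983 in DEN_WT and 3921 to 4791 in DEN_KO. No marker of these 3 lists that is in the table was at 0 in every library. The part of cell composition in the values of the 40 genes was not tested.

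The lists of chromatin regions gave the positions of Smyd3 and H3K4me3 at these start sites. A Smyd3 peak lay within 1 kb of the annotated start of 18 of the 40 genes, against 64.2% of all tested genes. H3K4me3 regions lay there for 29 genes in the DEN_WT list (70.5% of all tested genes) and 28 in the DEN_KO list (72.4%). All 3 kinds were present at 17 genes (58.4% of all), and none at 10 (22.3% of all). Both H3K4me3 lists but no Smyd3 peak marked 10 genes, a pattern found at 10.4% of all tested genes. These shares are descriptions and were not tested, since the lists give 1 set per group and no value per replicate.

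The alpha class held no Smyd3 peak within 1 kb of any start. At Gsta3 an H3K4me3 region of 4388 bases was listed in DEN_WT (chr1:21230778-21235165) and one of 7114 bases in DEN_KO (chr1:21230085-21237198), and the nearest Smyd3 peak lay 38253 bases away. At Gsta2 the regions were 676 bases wide in DEN_WT and 2215 in DEN_KO, and at Gsta4 they were 1627 and 1437. Gsta1 had none of the 3. Gstm1, Gstp2, all 3 theta class genes, Gstk1 and Mgst3 also held both H3K4me3 regions with no Smyd3 peak.

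Gpx1 was marked by all 3, with a Smyd3 peak of 1525 bases over its start (chr9:108241255-108242779) and H3K4me3 regions of 3162 bases in DEN_WT and 3326 in DEN_KO. Nfe2l2 and Keap1 were too, the Smyd3 peak at Nfe2l2 being 2204 bases wide (chr2:75541273-75543476). The others with all 3 were Gstm4, Gstm5, Gstp1, Gsto1, Gstz1, Mgst1, Gclc, Gclm, Gss, Gsr, Srxn1, Hmox1, Prdx1 and Cbr1. At Cbr3, which was low in every group, a Smyd3 peak was listed together with an H3K4me3 region in the DEN_KO list and none in the DEN_WT list. Gstm6 and Gstm7 had an H3K4me3 region in the DEN_WT list only.

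The 10 genes with no listed region were Gsta1, Gstm2, Gstm3, Mgst2, Slc7a11, Gpx2, Gpx3, Gpx4, Nqo1 and Txnrd1. The start used is the outermost one of the deposited table. It was not matched to the RefSeq starts whose sequences are printed above, so a region can lie at another start of such a gene, Txnrd1 included. At Gpx4 each list has a region downstream, with the nearest Smyd3 peak 5896 bases from that start, and at Txnrd1 the nearest H3K4me3 region in the DEN_KO list lay 24652 bases away. Counts changed little with the window: 17 genes held a Smyd3 peak within 500 bases and 19 within 5 kb.

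Calls and peaks were set side by side. Of the 16 genes higher in DEN_KO than in DEN_WT, 6 held a Smyd3 peak (Gstm5, Gstp1, Gsto1, Gpx1, Prdx1 and Cbr1), where 55.8% of all genes higher in that comparison did. Of the 21 that did not pass, 11 held one, against 64.4% of all such genes, and Nfe2l2, the one lower gene, held one, as did 71.7% of all lower genes. Of the 15 genes lower in DEN_WT than in WT, 7 held a peak, against 60.2% of all lower genes. The width of H3K4me3 was compared for the 27 genes with regions in both lists within 5 kb. The covered bases were greater in the DEN_KO list for 13 and smaller for 14, while 67.1% of 11908 tested genes were wider in the DEN_KO list.

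**Figure D5:**
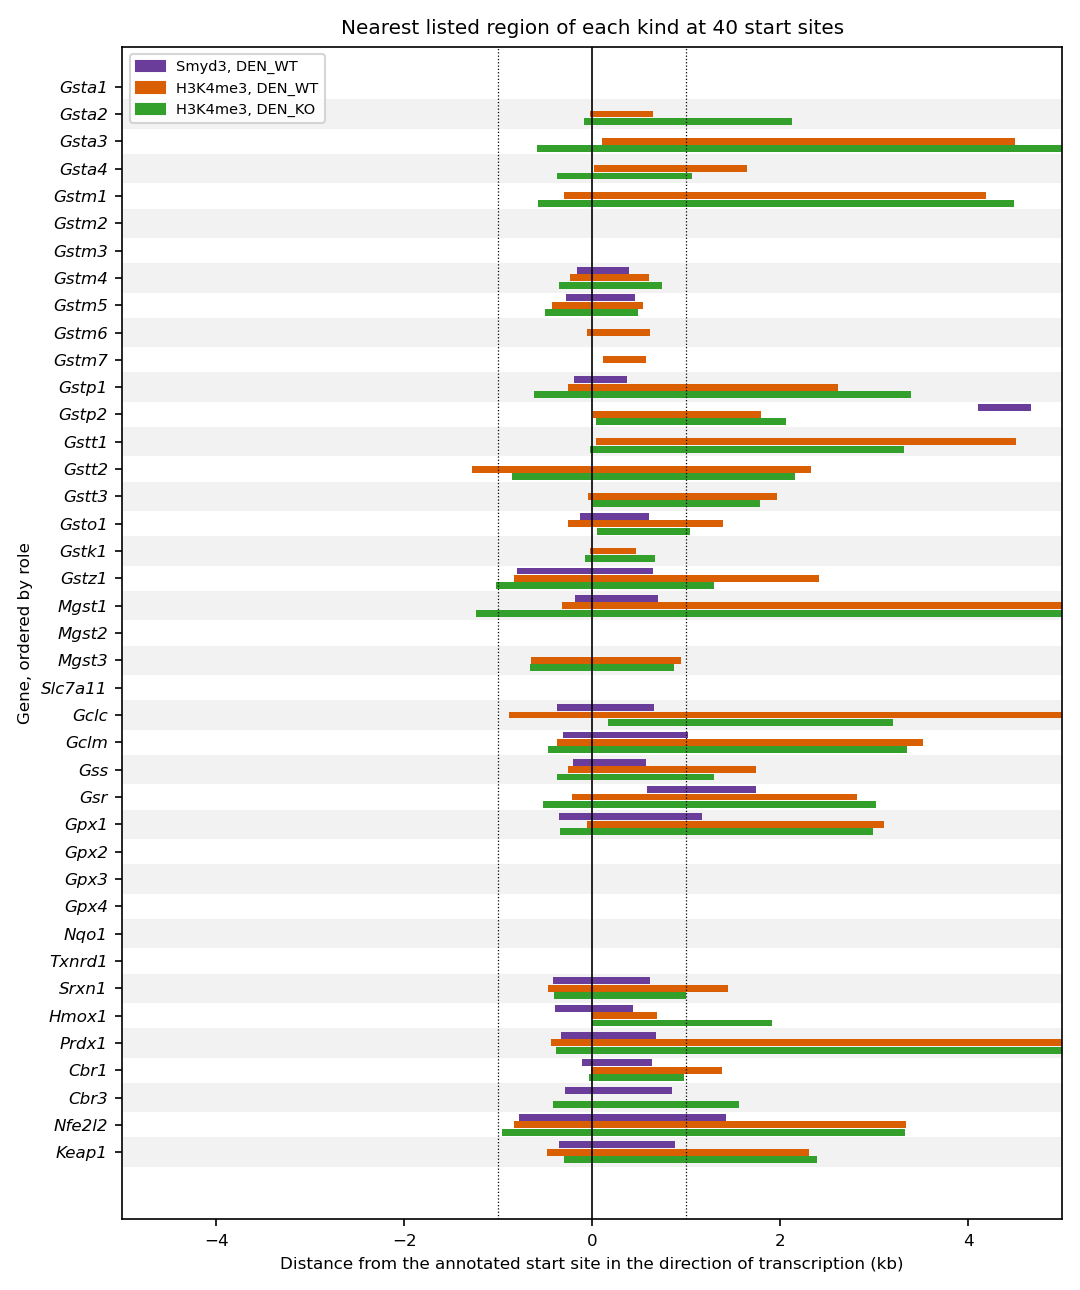
For each of the 40 genes, in order of role, bars show the nearest listed region of each kind by distance in kb from the annotated start in the direction of transcription, cut at 5 kb, with dotted lines at 1 kb on either side. Purple bars (Smyd3) are present within the dotted lines at 18 genes and absent from the whole alpha class, and 10 genes have no bar between the lines.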

How the data were processed

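RNA was measured in 12 mouse livers and chromatin in DEN-treated livers. Per the labels' protocols, mRNA was fragmented with RNase III and sequenced on an Ion Proton. The submitters' processing notes name build mm9 and, with no role, DESeq, Bowtie2, Cufflinks, TopHat2 2.0.9 and cutadapt. Nothing used here states the counter, strand use, annotation release or peak caller. The RNA values deposited by the authors are scores: read counts scaled by 1 factor in each library and then rounded, as the numbers themselves show. It is not a raw count, so no counting interval is given. GC share is a fraction in the deposited table, per the file headers. The region lists hold positions and a score of 0 in each line, as deposited by the authors.

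From these, limma 3.58.1 (R 4.3.3) was fitted on log2(value + 1) to the 16471 genes with at least 10 in 3 libraries, with all 4 groups in 1 fit (8 residual degrees of freedom), a trend, and Benjamini-Hochberg adjustment over all of them at 0.05. Log2 fold changes understate the change of genes with low values. Start sites came from the table's mm9 coordinates, and promoter sequences from RefSeq on GRCm38.p6. The code of the fit was run on simulated data with independent noise and far fewer changed genes than passed in DEN_WT against WT. That run does not measure the error of the calls given here. Python 3.11.15, pandas 2.3.3 and matplotlib 3.10.9 were used for counts and figures.

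The 40 genes and the lists of other pathway genes and markers were chosen with earlier results of these data known. Values per library are printed for genes past the threshold in the interaction, the 6 largest changes in each other comparison, and Gclc, Gclm, Nqo1, Hmox1, Gsr, Nfe2l2 and Keap1, and for the 3 largest pathway changes in DEN_WT against WT and DEN_KO against DEN_WT. One gene that this rule names is not reported here. Gstm1, Gstm3, Gstm4, Slc7a11, Txnrd1, Gpx2, Gpx3 and Gpx4 were added to these after their values were seen. Alternatives covered scaling, pseudocount, filter, trend, replicate block, single libraries, summed copies and gene span. Summed copies and span were chosen after seeing the data. RNA polymerase II precipitations and inputs were not analysed here.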

Additional observations from a re-analysis of the deposited data

Results flagged for a closer look

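For 10 of the genes the change with DEN differed between genotypes by a test of the difference itself, the interaction in limma over all 12 libraries. The values below are the log2 change in DEN_KO against KO minus that in DEN_WT against WT. They were 2.99 for Gsta1, 3.56 for Gsta2, 1.71 for Gsta3, 1.34 for Gsta4, 1.96 for Gstp1, 1.6 for Gstt2, 1.2 for Gsto1, 1.66 for Gstk1, 3.05 for Gpx1 and 1.09 for Cbr1. Adjusted p-values ran from 0.001 (Gsta2) to 0.038 (Gstk1). For Gsta2, Gsta3, Gsta4, Gstt2 and Gpx1 the difference stayed past the threshold under each of the 21 other settings run.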

How the results depend on the processing

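Over the settings run, no named gene past the threshold changed sign (sign changes of values that passed under neither setting were not counted). Calls in the 40 genes that passed under every setting in which the gene was tested were 10 of 17 in DEN_WT against WT and 12 of 17 in DEN_KO against DEN_WT. They were 3 of 5 in DEN_KO against KO and 5 of 10 in the interaction. Cbr3 is among those 3, although the filter of 50 in 3 libraries removed it and its call. In DEN_WT against WT, quantile normalization gave 4 higher genes, scaling to equal sums 9 lower, and leaving out single libraries 2 to 4 higher and 9 to 16 lower. Leaving out single libraries gave 11 to 18 higher and 1 to 3 lower genes in DEN_KO against DEN_WT. In KO against WT it gave 0 to 2 higher and 0 to 1 lower, and in the interaction 6 to 11 above 0 and 0 to 1 below. Without the trend 6 genes passed the interaction. Over all genes, KO against WT gave 191 calls, 104 without the trend, 115 with only these groups in the fit, and 62 to 555 without single libraries. DEN_KO against KO gave 2460 (1119 to 2661 without single libraries), and the interaction 2727 (1751 to 3075). Centring by gene span and GC gave 1 lower gene in DEN_KO against KO. Replicate numbers did not pair the mice (18 correlations of same-numbered deviations ran from -0.0996 to 0.12), and with the replicate block 1 gene was higher in KO against WT (Gstm3) and 2 were lower in DEN_KO against KO (Nfe2l2 and Gstm6). In DEN_KO against DEN_WT the block lost Gstm5 and Prdx1 and gained Gstm4, and in the interaction it lost Gstp1 and gained Cbr3. The looser motif core was in 20 promoters against 9. The cause of these changes was not tested. With 3 libraries a group and rounded, scaled values, differences of genes with low values such as Slc7a11 and Cbr3 are the least certain.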

Other observations

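Single libraries stood apart within groups for genes of low or variable level. DEN_KO replicate 2 held the highest of the 12 values of Slc7a11 (256, the next highest being 51), Cbr3 (143, next 36) and Srxn1 (3485, next 3340), and also the lowest Nfe2l2 value (1554). DEN_WT replicate 1 held the highest Gpx3 (1839, next 316) and Gpx2 (48, next 20). DEN_KO replicate 1 held the highest value for 10 of the 40 genes, and KO replicate 1 and WT replicate 1 for 0.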
